A study of Mus musculus with 9 samples.

Results

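Starburst amacrine cells are the cholinergic interneurons of the retina, and 8 genes tied to their transmitter, identity and wiring were followed across all 9 arrays of the series. The genes were taken by symbol from the platform annotation: Chat, Slc18a3, Slc5a7, Isl1, Fezf1, Megf10, Megf11 and Sema6a. All 8 were found, each with 1 probe set, among 24259 genes in all. The RNA came from whole retinas of C57Bl/6x129SvJ mice at postnatal day 8, hybridised to Affymetrix whole-transcript arrays, 3 arrays in each of 3 groups. The groups were wild type (WT), a knockout of Rb (Rb KO) and a double knockout of Rb and p107 (Rb/p107 DKO, DKO below). The labels name no allele, Cre driver or share of deleted cells, so the part of each mutant retina that lacked Rb is not known here. By the design text each array of a group is a biological replicate.

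Rb and its relative p107 hold back the E2F transcription factors, which drive entry into the cell cycle, and newborn retinal neurons rely on them to leave it. Starburst cells sit on both sides of the inner plexiform layer, release acetylcholine and GABA, and make the retina sensitive to the direction of motion. Earlier work on mouse retinas without Rb singled them out as neurons whose differentiation is altered. The present comparisons ask what Rb loss, combined loss, and added loss of p107 did to their genes in whole tissue. In such tissue, fewer cells of a type and less RNA per cell cannot be told apart.

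The 8 genes did not move as a block. Chat and Slc5a7 were called lower in both mutants and Slc18a3 in Rb KO alone. Isl1 and Fezf1 fell in Rb KO, and Fezf1 was higher in DKO than in Rb KO. Sema6a rose in both mutants and Megf10 in DKO. In Rb KO against WT 5 members fell, 1 rose and 2 did not pass, where 24.4% of all genes were called, 14.3% lower and 10.2% higher. The arrays of Rb KO and WT did not overlap for 5 lower members and 1 higher, which held for 35.8% of all genes, 21.5% lower and 14.3% higher. In DKO against WT 2 fell, 2 rose and 4 did not pass, where 29.3% of all genes were called, 17.1% lower and 12.2% higher. Arrays did not overlap there for 3 lower members and 1 higher, against 43.9% of all genes, 26.5% lower and 17.4% higher. The median log2 difference of the 8 was -0.61 in Rb KO and -0.02 in DKO, beside -0.05 and -0.06 over all genes. In DKO against Rb KO 1 member passed, upward, where 2.54% of all genes were called, 1.34% higher and 1.21% lower. The median of the 8 was 0.38 there, beside 0.00 over all genes.

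Values are log2 intensities, and each is read against the negative control probe sets of its own array, whose 95th percentile was 7.94 to 8.5. A reading at or below that percentile is called not above background. Called means an adjusted p under 0.05 in the limma fit to all 24259 genes. Isl1, Megf10 and Sema6a were above background on all 9 arrays. Slc18a3, Slc5a7 and Megf11 were above it on a single array, WT replicate 2, and Fezf1 on WT replicate 2 and DKO replicate 3. Chat was not above it on any array. For these 5 genes a fold change between groups is a difference between low readings, not a measured size, except where a bound is given.

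The arrays differed in ways that touch these genes. WT replicate 2 had the lowest negative control percentile and the best separation of positive from negative controls (area under the curve 0.954, against 0.927 to 0.944 in the others). This separation was 0.932 to 0.954 in WT arrays and 0.927 to 0.936 in mutant arrays, so it partly followed the groups. Used as a covariate below, it can take up part of a difference from WT, and why calls ended with it was not tested. WT replicate 2 was the highest WT array for 8 of 8 members, and for 38.9% of all genes. Rb KO replicate 3 was the highest Rb KO array for 5 of 8 members, and for 27.5% of all genes. DKO replicate 2 stood apart in Xist, an RNA of the inactive X chromosome (5.47, against 11.44 to 12.15 in the other arrays). No member lost a call without it. Same-group arrays shared no label that would tie them to a litter or a day.

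**Figure D1:**
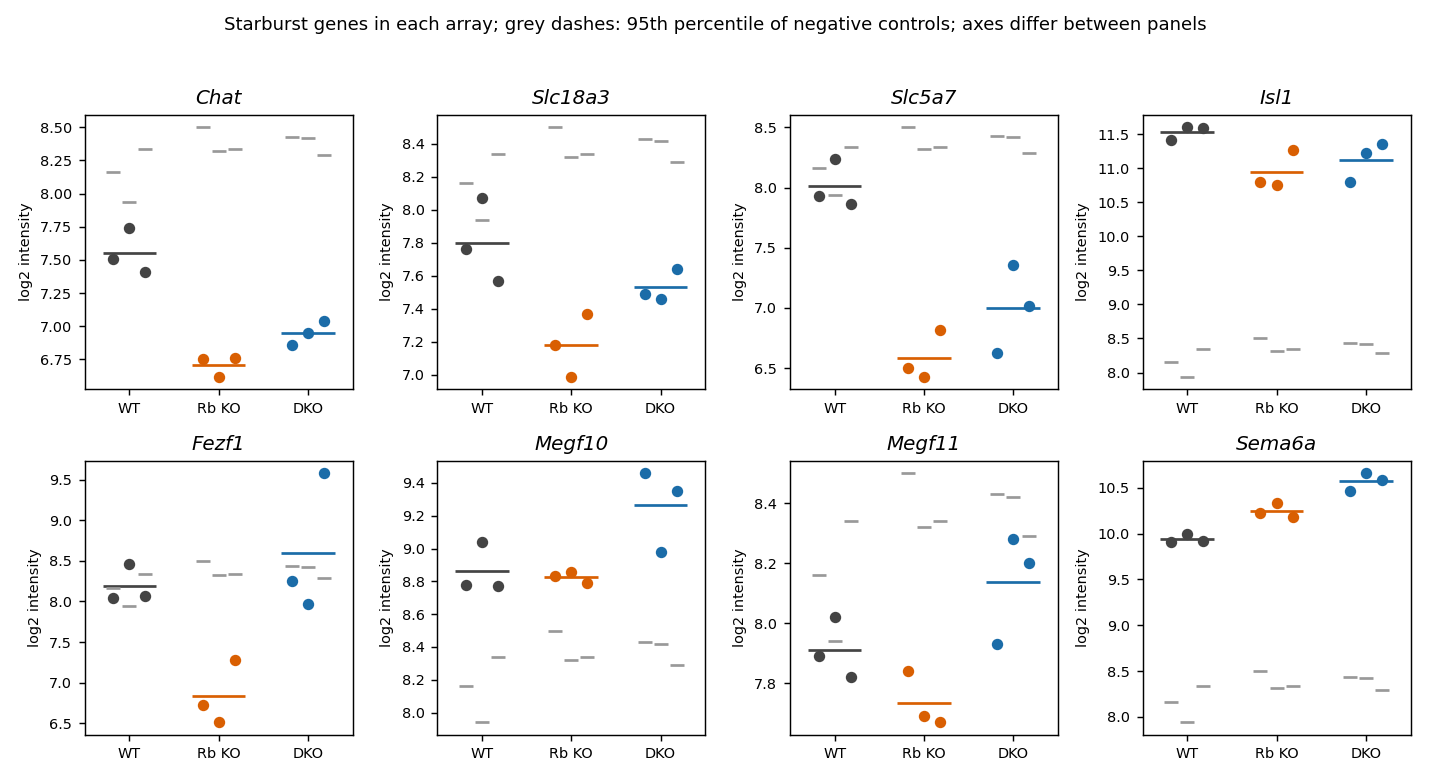
Log2 intensity (vertical axis, a separate range in each panel) of the 8 starburst genes in WT, Rb KO and Rb/p107 DKO (DKO) retinas, 1 point per array, with the group mean as a line and the 95th percentile of each array's negative controls as a grey dash. Isl1, Megf10 and Sema6a stand above the dashes on all 9 arrays, and Chat stands below them on all 9.

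The cholinergic genes were dim in all groups, and Chat and Slc5a7 were called lower in both mutants. Chat encodes choline acetyltransferase, which makes acetylcholine. Slc18a3 encodes the vesicular acetylcholine transporter, and Slc5a7 the choline transporter that brings choline back into the terminal. Slc18a3 lies inside the Chat gene, and the annotated starts of both are 1059 bases apart on chromosome 14 (GRCm38.p6). Which transcript each of the 2 probe sets reads was not determined, so their values may not be independent. All 3 were called lower in Rb KO, so the 250 bases before their annotated starts are shown, with those before Fezf1, the member called between the mutants. Capitals mark matches to the GC box (GGGCGG), the CCAAT box (CCAAT) and the half-site of the cyclic AMP response element (TGACG), on either strand. RefSeq's promoter table held an entry for 5 of the 8 genes.
Chat, chr14:32465910-32466159, minus strand: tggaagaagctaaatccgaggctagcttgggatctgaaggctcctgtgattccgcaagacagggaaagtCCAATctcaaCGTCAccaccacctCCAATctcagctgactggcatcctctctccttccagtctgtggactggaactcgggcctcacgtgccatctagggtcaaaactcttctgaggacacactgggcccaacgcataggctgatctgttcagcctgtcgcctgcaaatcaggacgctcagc
Slc18a3, chr14:32464851-32465100, minus strand: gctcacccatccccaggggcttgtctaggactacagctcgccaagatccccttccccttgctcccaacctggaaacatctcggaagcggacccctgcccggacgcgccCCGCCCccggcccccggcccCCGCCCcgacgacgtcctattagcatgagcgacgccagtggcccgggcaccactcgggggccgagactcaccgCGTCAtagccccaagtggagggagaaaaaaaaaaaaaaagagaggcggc
Slc5a7, chr17:54299035-54299284, minus strand: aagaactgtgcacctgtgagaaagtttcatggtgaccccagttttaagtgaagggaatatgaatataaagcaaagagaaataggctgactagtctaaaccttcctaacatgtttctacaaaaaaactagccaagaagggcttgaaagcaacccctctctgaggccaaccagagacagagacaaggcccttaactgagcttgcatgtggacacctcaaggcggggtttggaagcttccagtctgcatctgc
Fezf1, chr6:23248265-23248514, minus strand: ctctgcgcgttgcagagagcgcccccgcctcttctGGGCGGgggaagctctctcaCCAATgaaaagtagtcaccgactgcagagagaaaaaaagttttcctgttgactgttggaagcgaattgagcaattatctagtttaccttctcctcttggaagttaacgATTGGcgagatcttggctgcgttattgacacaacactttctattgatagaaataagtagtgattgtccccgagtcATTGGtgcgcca

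The windows have little in common. Chat holds 2 CCAAT boxes and 1 half-site, Slc18a3 holds 2 GC boxes and 1 half-site, and Slc5a7 holds none of these letters. Fezf1 holds 1 GC box and 3 CCAAT boxes. Over 32851 RefSeq promoter windows of that length, 32.7% hold a GC box, 33.8% a CCAAT box and 17.8% the half-site. The E2F core TTTNNCGC is in 4.3% of windows and the homeodomain core TAATTA in 4.8%. Neither was found in these 4 windows or in that of Isl1, which holds 2 half-sites and 2 CCAAT boxes, the same kinds of match as Chat. The share of G and C was 54.8% for Chat, 66.0% for Slc18a3, 45.6% for Slc5a7 and 47.6% for Fezf1.

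Chat read 7.51, 7.74 and 7.41 in WT, against 6.75, 6.62 and 6.76 in Rb KO arrays and 6.86, 6.95 and 7.04 in DKO arrays. The WT arrays lay above all 6 mutant arrays, and the DKO arrays lay above all 3 Rb KO arrays. In WT 85.8% to 93.6% of the negative controls of the same array read lower than Chat, in Rb KO 70.5% to 73.7% and in DKO 74.2% to 80.6%. The log2 difference from WT was -0.85 in Rb KO (SE 0.096, 3 arrays per group, adjusted p = 0.000128) and -0.60 in DKO (SE 0.096, adjusted p = 0.000855). Both calls held without any 1 array (adjusted p at most 0.00115 and 0.00568). DKO stood 0.24 above Rb KO (95% interval 0.03 to 0.46), which did not pass (adjusted p = 0.278).

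Slc18a3 read 7.76, 8.07 and 7.57 in WT, against 7.18, 6.99 and 7.37 in Rb KO arrays and 7.49, 7.46 and 7.64 in DKO arrays. The Rb KO arrays lay below all others, while a DKO array overlapped the WT range. Slc18a3 was lower in Rb KO by a log2 difference of -0.62 (SE 0.131, adjusted p = 0.00586). That call ended with control separation, the area under the curve given above, as a covariate (-0.40, adjusted p = 0.0545). In DKO the difference was -0.27 (95% interval -0.56 to 0.02, adjusted p = 0.158). It was -0.13 without WT replicate 2, -0.18 with array weights and -0.01 with control separation as a covariate. DKO stood 0.35 above Rb KO (95% interval 0.06 to 0.64, adjusted p = 0.246), which did not pass.

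Slc5a7 was the other cholinergic gene called in both mutants. It read 7.93, 8.24 and 7.86 in WT, against 6.50, 6.43 and 6.82 in Rb KO arrays and 6.63, 7.36 and 7.02 in DKO arrays. All WT arrays lay above all mutant arrays, and Rb KO and DKO overlapped. Between 91.0% and 96.3% of the negative controls read lower than Slc5a7 in WT, 66.2% to 74.9% in Rb KO and 69.1% to 83.5% in DKO. The log2 differences from WT were -1.42 in Rb KO (SE 0.176, adjusted p = 0.000226) and -1.0 in DKO (SE 0.176, adjusted p = 0.00157). Both held without any 1 array (adjusted p at most 0.00262 and 0.00608). DKO against Rb KO gave 0.42 (95% interval 0.03 to 0.81, adjusted p = 0.311), which ran from 0.24 without DKO replicate 2 to 0.61 without DKO replicate 1.

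Of the 2 transcription factor genes, Isl1 was bright and was called in Rb KO alone, and Fezf1 was dim and was called between the mutants as well. Isl1 encodes a LIM homeodomain factor of starburst cells, ganglion cells and ON bipolar cells. It read 11.41, 11.60 and 11.59 in WT, against 10.79, 10.76 and 11.26 in Rb KO arrays and 10.80, 11.22 and 11.36 in DKO arrays. No mutant array reached the WT range, and the mutant groups overlapped. Isl1 fell in Rb KO by 0.60 on the log2 scale (SE 0.159, 1.52-fold, adjusted p = 0.0191). The call was lost without any 1 of WT replicate 3, Rb KO replicate 1 and Rb KO replicate 2 (adjusted p = 0.0557, 0.08 and 0.081), and with control separation as a covariate (-0.52, adjusted p = 0.112) or array weights (-0.54, adjusted p = 0.0745). In DKO it stood at -0.41 (SE 0.159, adjusted p = 0.0814), a difference that passed without Rb KO replicate 3 (adjusted p = 0.0441).

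Fezf1 encodes a zinc finger repressor that marks starburst cells on the ON side. It read 8.04, 8.46 and 8.07 in WT, against 6.72, 6.51 and 7.28 in Rb KO arrays and 8.25, 7.97 and 9.58 in DKO arrays. All Rb KO arrays lay below all other arrays, WT and DKO overlapped, and DKO replicate 3 was the highest of the 9. Fezf1 was lower in Rb KO than in WT (-1.35, SE 0.350, adjusted p = 0.0167). That call ended without Rb KO replicate 1 or 2 (adjusted p = 0.0662 and 0.0707), with array weights (-1.26, adjusted p = 0.0846) and with control separation as a covariate (-0.92, adjusted p = 0.15). DKO against WT gave 0.41 (95% interval -0.36 to 1.18, adjusted p = 0.425), and -0.08 without DKO replicate 3.

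The gap between the mutants at Fezf1 was tested directly. DKO was higher than Rb KO by 1.76 (SE 0.350, 95% interval 0.99 to 2.54, adjusted p = 0.0279), a difference between low readings whose size was not measured. Against the background percentile of the Rb KO arrays it was at least 1.16-fold higher, a bound that rests on DKO replicate 3, the only mutant array above background. Without that array the difference was 1.27 (adjusted p = 0.0214). The call ended without Rb KO replicate 1 or 2 (adjusted p = 0.112 and 0.0794) and with trended, robust variances (adjusted p = 0.0596).

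Of the 3 genes of mosaic spacing and layering, Sema6a rose in both mutants, Megf10 in DKO, and Megf11 passed in no comparison. Sema6a encodes a transmembrane semaphorin that, with its plexin receptor, keeps ON and OFF starburst arbors in separate layers. It read 9.91, 10 and 9.92 in WT, against 10.22, 10.33 and 10.18 in Rb KO arrays and 10.47, 10.66 and 10.58 in DKO arrays. The 3 groups did not overlap, with WT lowest and DKO highest. Sema6a rose 1.23-fold in Rb KO (log2 0.30, SE 0.077, adjusted p = 0.0161) and 1.54-fold in DKO (log2 0.63, SE 0.077, adjusted p = 0.000163). The Rb KO call ended without WT replicate 1 (adjusted p = 0.0542), without Rb KO replicate 2 (adjusted p = 0.0687) and with each array centred on its median (adjusted p = 0.05). The DKO call held without any 1 array (adjusted p at most 0.00123). Between the mutants the difference was 0.33 (95% interval 0.16 to 0.50, adjusted p = 0.0539), which passed without WT replicate 2 (adjusted p = 0.0399).

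Megf10 and Megf11 encode transmembrane receptors through which starburst cells and horizontal cells space themselves from neighbours of their own type. Megf10 read 8.78, 9.04 and 8.77 in WT, against 8.83, 8.86 and 8.79 in Rb KO arrays and 9.46, 8.98 and 9.35 in DKO arrays. WT and Rb KO overlapped, and DKO replicate 2 lay within the WT range. Megf10 rose in DKO (log2 0.40, SE 0.121, 1.32-fold, adjusted p = 0.0294). That call ended without WT replicate 1 or 3 (adjusted p = 0.0923 and 0.0885), without DKO replicate 1 or 3 (adjusted p = 0.124 and 0.0987), with median centring (adjusted p = 0.0688) and with only the WT and DKO arrays fitted (adjusted p = 0.0658). In Rb KO it stood at -0.03 (95% interval -0.30 to 0.23, adjusted p = 0.884), and at 0.05 without WT replicate 2. DKO against Rb KO gave 0.43 (95% interval 0.17 to 0.70, adjusted p = 0.102), with no overlap between their arrays, and 0.58 without DKO replicate 2 (adjusted p = 0.0223).

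Megf11 read 7.89, 8.02 and 7.82 in WT, against 7.84, 7.69 and 7.67 in Rb KO arrays and 7.93, 8.28 and 8.20 in DKO arrays. The DKO arrays lay above all Rb KO arrays, and WT overlapped both. No comparison of Megf11 passed. Its log2 differences were -0.18 in Rb KO (95% interval -0.41 to 0.05, adjusted p = 0.242), 0.23 in DKO (adjusted p = 0.126) and 0.41 between the mutants (95% interval 0.18 to 0.63, adjusted p = 0.0715). The latter pair passed without DKO replicate 1 (adjusted p = 0.0366 and 0.0382).

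**Figure D2:**
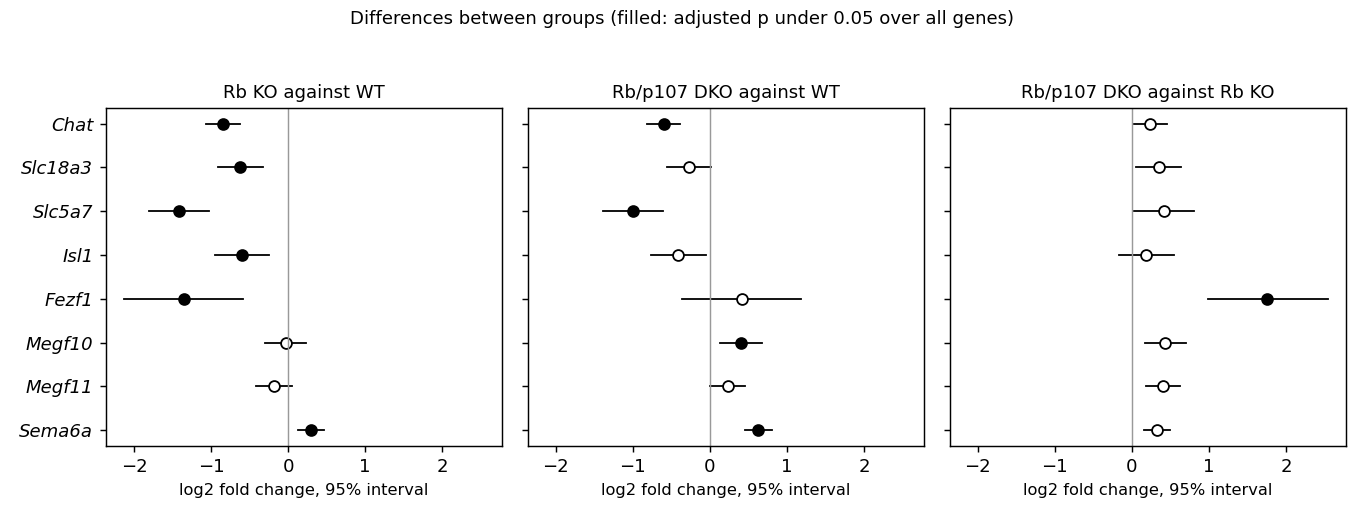
Log2 fold change (horizontal axis) of the 8 starburst genes in the 3 comparisons, with 95% intervals; filled points have an adjusted p under 0.05 over all genes. Chat and Slc5a7 lie left of 0 in both comparisons with WT, Fezf1 is filled at -1.35 in Rb KO against WT and at 1.76 in DKO against Rb KO, and no point lies left of 0 in DKO against Rb KO.

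Set side by side, the mutants differed in the same direction at all 8 genes. Each read higher on average in DKO than in Rb KO, where the median difference over all genes was 0.00. For Chat, Slc18a3, Slc5a7, Fezf1 and Megf11 these were mostly readings not above background. In 6 of 8 the DKO arrays lay wholly above the Rb KO arrays, against 22.1% of all genes without overlap, 11.3% higher and 10.9% lower, the exceptions being Slc5a7 and Isl1. Fezf1 alone passed the test. The comparisons share groups, Rb KO entering this one and the one with WT, so they are not independent. The count of members called in that comparison was 1, and ran from 0 (without Rb KO replicate 1 or 2) to 2 (without WT replicate 2, DKO replicate 1 or DKO replicate 2). With array weights it was 4, all upward. In Rb KO against WT the count fell from 6 to 3 without Rb KO replicate 2, and to 3 with control separation as a covariate.

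Profiles were also compared by likeness, taken as the root mean square difference in log2 over 9 arrays once each gene's WT mean was subtracted. Among the members, Slc18a3 was closest to Isl1 (0.196) and to Chat (0.245), and Megf10 to Megf11 (0.244) and to Sema6a (0.287). For Chat, Slc18a3, Slc5a7, Fezf1 and Megf11 these distances rest on readings mostly not above background, so they describe the readings and give no measured likeness of expression. Of 6366 candidate genes above background on at least 3 arrays, those most like Chat were Ankrd6 (0.042), Ndrg4 (0.049) and Mfn2 (0.088). Those most like Slc5a7 were Grtp1 (0.072), Alpl (0.127) and Faim2 (0.128), and those most like Slc18a3 were Chrna7 (0.082), Cxcl14 (0.088) and Necab2 (0.094). Of 6365 candidates, Isl1 was matched most closely by Sh3gl2 (0.114), Rit2 (0.132) and Napg (0.134). All profiles share the same arrays and the same division into groups. A candidate could pass the background filter through its 3 WT arrays alone, as Ankrd6 did. Faim2, Chrna7 and Necab2 likewise had no Rb KO array above background, and Grtp1, Alpl and Cxcl14 only Rb KO replicate 3. Their distances too rest in part on low readings.

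Of 19 receptor and chaperone genes 15 were measured, and 11 of these were above background on some array. In Rb KO 11 fell and 2 rose (median -0.55), and in DKO 8 fell, 1 rose and 6 did not pass (median -0.26). Over all genes 14.3% were called lower and 10.2% higher in Rb KO (median -0.05), and 17.1% and 12.2% in DKO (median -0.06). Chrm2, a muscarinic receptor, was lowest by p among the falls in both mutants (-0.78, SE 0.098, adjusted p = 0.000253 in Rb KO, and -0.62, adjusted p = 0.000768 in DKO), though only 1 WT array and no mutant array was above background. Chrna6 and Chrnb3, singled out after their values were seen, encode nicotinic subunits found together in ganglion cells. Chrna6 read 10.65, 10.75 and 10.40 in WT, against 8.63, 8.89 and 9.50 in Rb KO arrays and 9.05, 9.65 and 9.38 in DKO arrays. It fell by 1.59 in Rb KO (SE 0.209, adjusted p = 0.000335) and by 1.24 in DKO (adjusted p = 0.00123). Chrnb3 fell by 1.16 (adjusted p = 0.00287) and by 0.83 (adjusted p = 0.0141), the latter a call that ended without DKO replicate 1 (adjusted p = 0.0594). Only 1 Rb KO array and 2 DKO arrays of Chrnb3 were above background, so the sizes of its falls are uncertain.

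Chrnb4 and Chrna3, subunits of another nicotinic receptor, went up. Chrnb4 read 8.74, 8.99 and 8.92 in WT, against 10.15, 10.01 and 10.26 in Rb KO arrays and 8.76, 8.74 and 8.80 in DKO arrays. The Rb KO arrays stood above all others and DKO overlapped WT. Chrnb4 rose by 1.26 in Rb KO (SE 0.088, adjusted p = 4.22e-06), stood at -0.12 in DKO (adjusted p = 0.357), and was lower in DKO than in Rb KO (-1.37, SE 0.088, adjusted p = 6.14e-05). Chrna3 rose in both, by 0.75 (SE 0.106, adjusted p = 0.000544) and 0.97 (adjusted p = 7.75e-05), with only 1 WT array above background. Chrna7, which encodes a nicotinic subunit that forms receptors by itself, fell in Rb KO by at least 0.38 on the log2 scale, as no Rb KO array was above background (adjusted p = 0.00101). It stood at -0.25 in DKO (adjusted p = 0.084).

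Of 11 genes of acetylcholine breakdown and choline supply, 8 were measured. In Rb KO 2 fell, 2 rose and 4 did not pass (median -0.06), and in DKO 3 fell, 2 rose and 3 did not pass (median -0.07). Over all genes 14.3% were called lower and 10.2% higher in Rb KO (median -0.05), and 17.1% and 12.2% in DKO (median -0.06). Ache, whose enzyme splits acetylcholine, read 10.42, 10.59 and 10.14 in WT, against 9.66, 9.46 and 9.80 in Rb KO arrays and 9.23, 9.59 and 9.48 in DKO arrays. It fell by 0.74 (SE 0.134, adjusted p = 0.00237) and by 0.95 (adjusted p = 0.000395), with no overlap with WT. Chka, a choline kinase of phospholipid synthesis, rose by 0.57 (SE 0.081, adjusted p = 0.000532) and 0.56 (adjusted p = 0.000475). Its readings lay near background, above it on 1 WT, 2 Rb KO and 2 DKO arrays, so the sizes of these rises are uncertain.

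Further starburst and direction circuit genes gave 7 measured of 14. In Rb KO 3 fell and 4 did not pass (median -0.28), and in DKO 4 fell and 3 did not pass (median -0.24), with no rise in either. Of all genes 24.4% were called in Rb KO, 14.3% lower (median -0.05), and 29.3% in DKO, 17.1% lower (median -0.06). Kcnc2, a fast potassium channel gene, was lower in Rb KO (-0.63, SE 0.079, adjusted p = 0.000244) at readings not above background. Slc12a2, which loads cells with chloride, fell in both mutants (-0.48, adjusted p = 0.00292, and -0.58, SE 0.091, adjusted p = 0.000728). Frmd7, a gene of starburst cells needed for direction selectivity and mutated in congenital nystagmus, was the only gene of this group called between the mutants and is named for that reason. It read 6.78, 6.95 and 6.65 in WT, against 5.70, 6.03 and 6.25 in Rb KO arrays and 7.21, 6.75 and 7.41 in DKO arrays. As with Fezf1, all Rb KO arrays were lowest and DKO overlapped WT. Frmd7 was lower in Rb KO (-0.80, SE 0.173, adjusted p = 0.0068), a call that ended with control separation as a covariate (-0.52, adjusted p = 0.0683). DKO was higher than Rb KO (1.13, SE 0.173, adjusted p = 0.00695). In DKO it stood 0.33 above WT (adjusted p = 0.191), which passed without DKO replicate 2 (0.51, adjusted p = 0.0368) and with control separation as a covariate (0.66, adjusted p = 0.0367). No reading of Frmd7 was above background, so no size was measured.

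**Figure D3:**
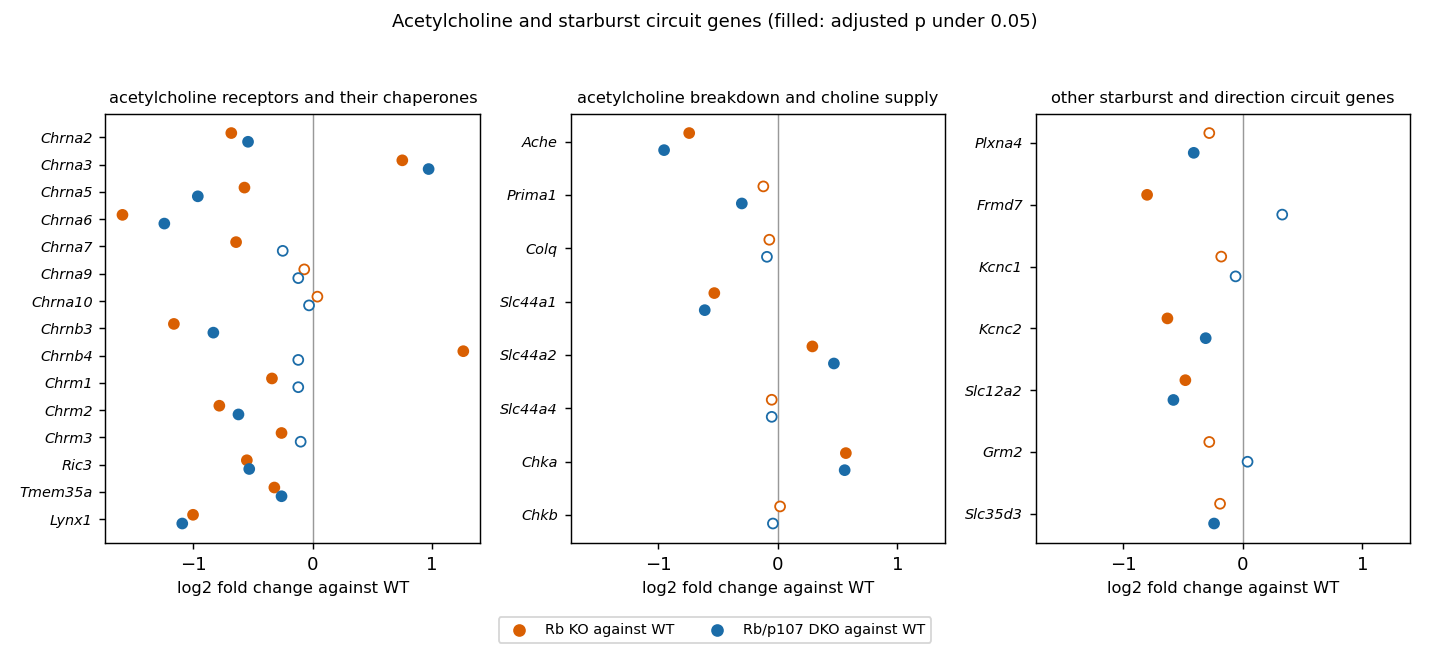
Log2 fold change against WT (horizontal axis) of each measured gene of acetylcholine reception, of acetylcholine breakdown and choline supply, and of the wider starburst circuit, in orange for Rb KO and in blue for DKO; filled points have an adjusted p under 0.05. Most filled points lie left of 0, and Chrnb4 stands apart at 1.26 in Rb KO and -0.12 in DKO.

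The members are not exclusive to starburst cells, so markers of the other cells are given beside them. The counts of called markers, here and below, stand against 14.3% of all genes called lower and 10.2% higher in Rb KO. In DKO these shares were 17.1% and 12.2%. Of the ON bipolar markers, which share Isl1, 12 of 14 were measured; 11 fell and 1 rose in Rb KO and 11 fell in DKO. Their summed linear intensity was 12031 to 13751 in WT, 5869 to 8574 in Rb KO and 5047 to 6992 in DKO. Ganglion cell markers, which also share Isl1, fell in 9 of 13 measured cases in Rb KO and in 10 in DKO, where 1 rose. Their sum was 10548 to 12595 in WT, 6215 to 8737 in Rb KO and 6219 to 7682 in DKO. In both sums Rb KO replicate 3 was the highest Rb KO array and DKO replicate 1 the lowest DKO array, as at Isl1. The highest DKO array was replicate 2 in both sums and replicate 3 at Isl1. The highest WT array was replicate 2 in both sums and at Isl1. The lowest WT array was replicate 1 in the ON bipolar sum and at Isl1, and replicate 3 in the ganglion sum. Rb KO replicate 3 was also the highest Rb KO array, and DKO replicate 1 the lowest DKO array, in the rod sum (9318 and 5712). The same held for the sum of acetylcholine receptors and chaperones (4957 and 3639). The part of ON bipolar and ganglion cells in the result for Isl1 was not tested. Sebox of the bipolar list was lower in both mutants at readings not above background there (-1.22, SE 0.104, adjusted p = 1.9e-05 in Rb KO, and -1.19, adjusted p = 1.53e-05 in DKO), and Otx2 stood in Rb KO at 0.42 (SE 0.082, adjusted p = 0.0035). Sncg of the ganglion list fell by 0.81 in Rb KO (SE 0.143, adjusted p = 0.00215). In DKO Isl2 was called lower, with no DKO array above background (at least 0.04 on the log2 scale, adjusted p = 0.000892). Atoh7 was called higher there (adjusted p = 0.0284) with no array above background. The Atoh7 call was lost without any 1 WT array (adjusted p = 0.0533 to 0.0729).

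Markers of other amacrine cells moved both ways. Of 23 listed, 15 were counted as measured, and 7 rose and 5 fell in each mutant. Those 15 and the 5 falls include Nprl3, which was not listed and was matched to Prox1 by a shared synonym. Prox1 itself was not measured. Nprl3 stood at -0.27 in each mutant (adjusted p = 0.0457 in Rb KO and 0.0365 in DKO), with no array above background. The sum of the 15, Nprl3 among them, was 9441 to 10661 in WT, 10115 to 11079 in Rb KO and 12108 to 12629 in DKO. Foxn4, which acts in amacrine precursors, rose in Rb KO (at least 1.09 on the log2 scale, adjusted p = 1.88e-05). Barhl2, an amacrine subtype factor, rose by 1.70 in DKO (SE 0.113, adjusted p = 1.9e-06). Calb2, the calretinin gene of many amacrine and ganglion cells, fell by 1.27 in Rb KO (SE 0.133, adjusted p = 7.66e-05) and 1.0 in DKO (adjusted p = 0.000267). Which cells this fall came from, starburst cells included, was not tested.

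For the cells that share Megf10 and Megf11, horizontal cell markers gave 1 rise and 1 fall among 5 measured in each mutant. Over all genes 10.2% were called higher and 14.3% lower in Rb KO, and 12.2% and 17.1% in DKO. Onecut2 was the rise, with 1 DKO array and no other above background (0.58, SE 0.119, adjusted p = 0.00524 in Rb KO, and 0.81, adjusted p = 0.000507 in DKO). Septin4 was the fall (-0.50, SE 0.089, adjusted p = 0.00216 in Rb KO, and -1.04, adjusted p = 1.33e-05 in DKO). The horizontal sum was 1972 to 2142 in WT, 1746 to 1959 in Rb KO and 1524 to 1772 in DKO. Rb KO and DKO overlapped, and all mutant arrays lay below all WT arrays. The part of horizontal cells in the result for Megf10 was not tested. Muller glia markers fell in 5 of 8 cases in each mutant, with sums of 11412 to 13452 in WT, 8070 to 8833 in Rb KO and 8452 to 9498 in DKO. Clu, a secreted chaperone of these glia, fell by 1.30 in Rb KO (SE 0.156, adjusted p = 0.000186) and 1.40 in DKO (adjusted p = 8.4e-05). Of 4 astrocyte markers 3 were called lower in Rb KO, and 2 lower and 1 higher in DKO. No reading of the named astrocyte genes was above background in either comparison (Aldh1l1 -0.53, adjusted p = 0.00237 in Rb KO, then -0.56, adjusted p = 0.00122 in DKO, and Pax2 0.38, adjusted p = 0.00906 in DKO). Endothelial markers were called lower in 5 of 7 cases in Rb KO, led by Slco1a4 (-1.86, adjusted p = 0.000591, not above background), and in 6 of 7 in DKO, led by Cldn5 (lower by at least 0.72 on the log2 scale, adjusted p = 0.00018, with no DKO array above background).

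The tissue label was borne out by rod genes, and cycling genes set the mutants apart. All 4 measured rod markers fell in both mutants, with sums of 21928 to 22988 in WT, 4709 to 9318 in Rb KO and 5712 to 13956 in DKO. Nrl, the rod factor, fell by 0.90 in Rb KO (SE 0.130, adjusted p = 0.000622) and 1.53 in DKO (adjusted p = 1.26e-05). All 6 measured cycling markers rose, led by Mki67 (at least 4.13 on the log2 scale in Rb KO, with an adjusted p of 1.62e-08, and 4.27 in DKO, with 5.2e-09), with sums of 640 to 757 in WT, 8089 to 10872 in Rb KO and 10718 to 12371 in DKO. What a changed mix of cells contributed to the readings of the 8 genes was not tested.

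**Figure D4:**
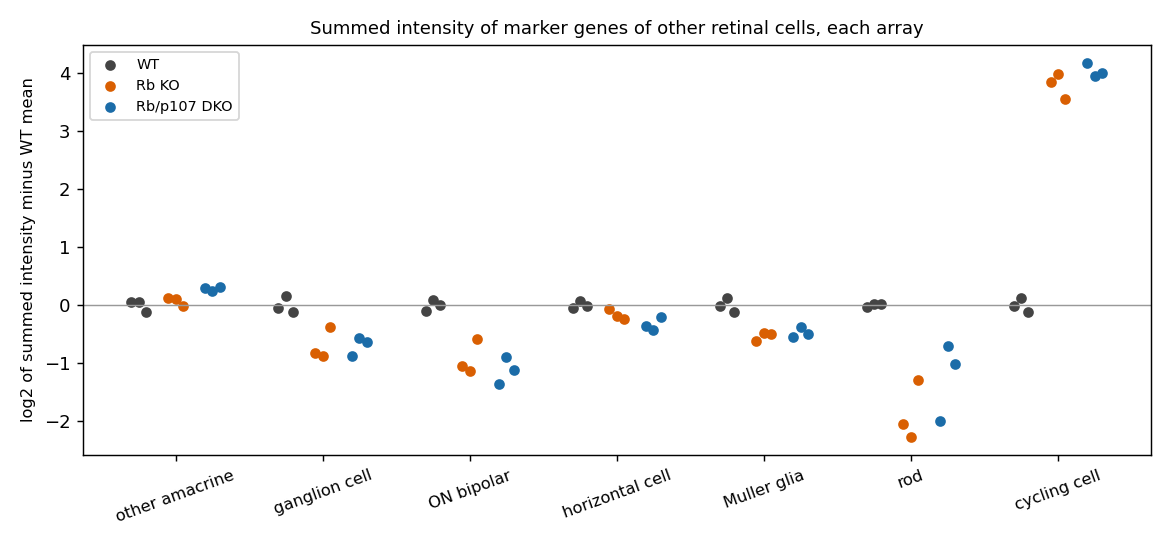
Summed intensity of the measured markers of 7 retinal cell classes in each array, as the log2 of the sum minus the WT mean of that log2 (vertical axis), in grey for WT, orange for Rb KO and blue for DKO. Ganglion, ON bipolar, Muller glia and rod sums lie below 0 in all mutant arrays, as do horizontal sums, at -0.42 to -0.06. Other amacrine sums lie at -0.01 to 0.31 in the mutant arrays, and cycling sums lie at 3.55 to 4.16. The other amacrine sums include Nprl3, counted in place of Prox1.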

How the data were processed

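The deposited table holds log2 intensities of 59649 probe sets on 9 arrays, summarised by RMA by the authors per the submitters' processing notes; the RMA version and genome build are not given in the sources used here. Of these, 6732 were controls (5222 negative, 1324 positive). Symbols came from the platform annotation: 24646 probe sets had 1 symbol, 1795 several and 26476 none listed. A gene was its brightest probe set over all arrays, which gave 24259 genes, 24007 of them in RefSeq's GRCm38.p6 gene table. Groups were compared with limma 3.58.1 under R 4.3.3 on all 9 arrays (6 residual and 4.693 prior degrees of freedom), with Benjamini-Hochberg adjustment over all genes, called under 0.05, and tested on simulated data. Intervals are 95%. Plots used matplotlib 3.10.9 (Python 3.11.15). Only 3 arrays per group limit the precision. A bound given as "at least" sets the brighter group's mean against a floor, which in each array of the dimmer group was its reading or its 95th percentile of negative controls, whichever was larger, averaged over the arrays.

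The members and the 15 lists (146 genes, 112 measured, with Nprl3 counted in place of Prox1) were chosen with earlier results of these data known. Named were the 8 genes, from each list the called member of lowest p in each direction against WT, and the 3 genes most like Chat, Slc18a3, Slc5a7 and Isl1; likeness left out Gm-numbered, Rik, microRNA and olfactory receptor symbols, and genes not above background on 3 arrays. Genes on chromosomes with next to no probe sets in the table were not analysed here. Alternatives were renewed quantile normalization, median centring, the mean of probe sets, a filter on dim genes, trended robust variances, fits of 2 groups, array weights, a replicate block, control separation as a covariate, and leaving out each array.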

Additional observations from a re-analysis of the deposited data

How the results depend on the processing

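Of 201 alternative values of the 8 genes that kept all arrays, 181 kept direction and side of the threshold. With array weights the calls of Isl1 (-0.54) and Fezf1 (-1.26) in Rb KO against WT ended, Megf10 there turned to 0.02, and Megf10 (0.46), Megf11 (0.43) and Sema6a (0.31) passed in DKO against Rb KO. With control separation as a covariate Slc18a3 (-0.40), Isl1 (-0.52) and Fezf1 (-0.92) in Rb KO against WT no longer passed, Megf10 there turned to 0.11, and Cxcl14 in DKO against WT turned to 0.09. Only genes above background on 3 or more arrays brought in Isl1 in DKO against WT (-0.41), and Megf10 (0.43) and Sema6a (0.33) in DKO against Rb KO; trended robust variances brought in Sema6a there (0.33) and ended Fezf1 (1.76). Median centring ended Megf10 in DKO against WT (0.39) and Sema6a in Rb KO against WT (0.32), and fitting 2 groups alone ended Megf10 in DKO against WT (0.40). Control separation partly followed the groups, and the causes of these shifts were not tested.

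Replicate numbers did not pair the arrays: deviations of same-numbered arrays correlated at -0.16 to 0.15. With the replicate block Isl1 passed in DKO against WT (-0.41) and Megf10 there did not (0.40). The number of members called moved from 6 to 2 of 3 tested (dim filter) and 3 (control separation) in Rb KO against WT, and from 1 to 2 (dim filter) and 4 (array weights) in DKO against Rb KO, alternatives chosen after the data were seen. Over all genes, DKO against WT gave 4330 calls with the dim filter, which tests 7843 genes, against 7113, and DKO against Rb KO gave 391 with median centring and 1351 with array weights, against 617.

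Leaving out 1 array at a time, calls in DKO against Rb KO ran from 253 to 859, and members called from 3 to 6 in Rb KO against WT and from 0 to 2 in DKO against Rb KO. Values ran from -0.76 to -0.51 (Isl1) and -1.57 to -1.19 (Fezf1), -0.08 to 0.05 (Megf10) and 0.26 to 0.33 (Sema6a) in Rb KO against WT. Between DKO and WT they ran from -0.52 to -0.24 (Isl1), -0.08 to 0.72 (Fezf1), 0.30 to 0.54 (Megf10) and 0.15 to 0.33 (Megf11). In DKO against Rb KO they ran from 1.27 to 2.08 (Fezf1), 0.33 to 0.58 (Megf10), 0.33 to 0.51 (Megf11) and 0.28 to 0.38 (Sema6a). Chat and Slc5a7 kept both calls against WT under each alternative that tested them. Signal over background limits 5 of the 8 genes, whose differences have no measured size.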
